A study of Mus musculus with 10 samples.

Results

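Krüppel-like factors are zinc finger transcription factors, and 7 genes of the family were followed here in colon regulatory T cells (Tregs): Klf2, Klf3, Klf4, Klf6, Klf10, Klf12 and Klf13. They were taken by gene name from the 54532 genes of the count table, and all 7 were among the 21414 genes that passed the filter on low counts. The 10 libraries were made by Smart-seq2, which amplifies full-length cDNA from little RNA, from cells sorted by CD45, CD3, CD4 and CD25 together with GFP, the reporter that this Foxp3 allele carries. The 5 Tumor libraries came from colon tumours of Apc Min/+ Foxp3 DTR mice, and the 5 WT libraries from the colon of Foxp3 DTR mice without the Apc Min allele. Apc Min is a truncating allele of the Wnt pathway inhibitor Apc, and mice that carry it form intestinal tumours. The Foxp3 DTR allele, which places a diphtheria toxin receptor under Foxp3, was shared by both groups, so WT refers to Apc alone. All mice were C57BL/6 males aged 16 weeks. The labels do not say whether the libraries of a group came from separate mice or from pooled cells, so p-values here reflect only how these libraries varied, which may be technical.

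Krüppel-like factors bind GC-rich and CACCC sequences through zinc fingers at the carboxyl end of the protein and differ in the cofactors that the rest of the protein recruits. Klf2, Klf4 and Klf6 are mostly described as activators, Klf3 and Klf12 as repressors that recruit CtBP, and Klf10 and Klf13 as factors that recruit the Sin3A corepressor. In T cells Klf2 keeps cells quiescent and drives the egress receptor gene S1pr1, while Klf10 is induced by TGF-beta, a cytokine that supports Foxp3 expression. In the colon Klf4 and Klf5 are also known as factors of differentiated and of crypt epithelium, respectively.

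The sequence before the transcription start is shown for Klf2, the member that passed the test between groups, and for Klf6 and Klf13, the pair of members whose levels moved most closely together over the libraries. Each run is the 250 bases before the start in RefSeq (GRCm38.p6, the mm10 build), written 5′ to 3′ on the strand of the gene. The RefSeq starts of Klf2 and Klf6 lie inside the genes as counted here, so the ends of these windows, with the CACCC match of Klf2, fall within the gene. Of the windows not shown, that of Klf3 also runs into its gene. The Klf12 window lies wholly inside the gene as counted, far from its 5′ end. The windows lie at chr8:72318812-72319061 (plus strand) for Klf2, chr13:5861239-5861488 (plus strand) for Klf6 and chr7:63938916-63939165 (minus strand) for Klf13. Capitals mark matches, on either strand, to the GC box GGGCGG, the CACCC box CACCC, the CCAAT box CCAAT and the consensus of myocyte enhancer factor 2 (MEF2), which allows several letters at most positions.
Klf2: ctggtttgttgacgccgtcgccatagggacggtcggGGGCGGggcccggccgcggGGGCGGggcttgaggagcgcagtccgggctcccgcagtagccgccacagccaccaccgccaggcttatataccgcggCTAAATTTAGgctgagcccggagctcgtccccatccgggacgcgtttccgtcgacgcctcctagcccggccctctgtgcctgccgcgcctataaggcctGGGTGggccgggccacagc
Klf6: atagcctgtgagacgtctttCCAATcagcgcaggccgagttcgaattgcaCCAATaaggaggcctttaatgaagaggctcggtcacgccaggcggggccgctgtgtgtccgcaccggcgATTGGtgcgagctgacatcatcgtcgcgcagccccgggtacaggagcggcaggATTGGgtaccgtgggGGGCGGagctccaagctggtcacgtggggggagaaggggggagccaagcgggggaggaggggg
Klf13: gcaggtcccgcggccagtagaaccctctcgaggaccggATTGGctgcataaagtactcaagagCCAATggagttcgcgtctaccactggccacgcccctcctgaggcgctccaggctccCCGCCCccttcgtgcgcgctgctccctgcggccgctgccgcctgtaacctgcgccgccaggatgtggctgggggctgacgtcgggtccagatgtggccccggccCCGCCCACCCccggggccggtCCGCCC
The 1 MEF2 match in Klf2, CTAAATTTAG, began 118 bases before its start, and the other 5 members with a window had no match, against 959 of the 32851 promoter windows of the table (2.92%). MEF2 factors are known to act on the Klf2 promoter downstream of the kinases Map2k5 and Mapk7. The GC box was found in 5 of the 6 members with a window, against 32.7% of all windows. The exception was Klf12, whose window lies inside the gene. The CACCC box was found in 4 of 6 (Klf2, Klf3, Klf12 and Klf13), against 52.0%. In Klf13 a GC box and the CACCC box overlapped. CCAAT was found in Klf6 and Klf13 alone among the 6, against 33.8% of all windows, and the FOXO core TGTTTAC in 0 of 6, against 3.17%. These are matches of letters and not measured binding. The median GC content of all windows was 52.4%, and it was 71.2% in Klf2, 64.8% in Klf6 and 71.6% in Klf13.

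Levels are given as CPM, the reads of a gene relative to its library's total, after TMM scaling, which adjusts those totals for composition, and genes are compared with each other per kilobase of gene length. Depth, as total counts, lay between 3054435 and 7747699 per Tumor library and between 1676229 and 8412887 per WT library. The sort marker genes were present in every library but at different levels: their summed level (Ptprc, Cd3d, Cd3e, Cd3g, Cd4, Il2ra and Foxp3) was 2998 to 5371 CPM in Tumor and 173 to 1273 CPM in WT, with no gene of the 7 at 0. Foxp3 itself had a log2 fold change of 2.48 ± 0.64 (SE, edgeR adjusted p = 0.0560). The sum over 16 epithelial genes reached 36702 and 41872 CPM in WT replicates 1 and 2, while it was 170.0 to 225 CPM in the other WT libraries and 63.0 to 5290 CPM in Tumor. The gene model Gm10800 took 9.92 to 26.5% of all counts in those other WT libraries (3 to 5), and 0.844 to 5.77% in the remaining 7 libraries. In such bulk libraries fewer T cells and less RNA per T cell cannot be told apart.

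Klf6 was the most abundant of the 7 members by median in both groups, with Klf2 next in Tumor and behind Klf4 in WT. In Tumor the median level per kilobase was 162 CPM per kb for Klf6, 82.9 for Klf2, 19.1 for Klf13, 13.3 for Klf4, 6.15 for Klf3, 5.90 for Klf10 and 0.591 for Klf12. Of the neighbours in that order, Klf2 lay above Klf13 and Klf10 above Klf12 with no overlap of their ranges, and the other neighbours overlapped. Klf6 exceeded Klf2 in 4 of 5 Tumor libraries. In WT the order was Klf6 (57.5 CPM per kb), Klf4 (15.6), Klf2 (12.5), Klf10 (9.55), Klf13 (8.79), Klf3 (5.09) and Klf12 (0.417), and the ranges of all neighbours overlapped except those of Klf3 and Klf12. The SD of log2(CPM + 1) was larger in WT than in Tumor for Klf3 (1.47 and 0.48), Klf4 (3.15 and 1.21), Klf6 (1.36 and 0.52), Klf10 (1.12 and 0.62) and Klf13 (0.76 and 0.47), and slightly smaller for Klf2 (0.76 and 0.80) and Klf12 (1.18 and 1.27).

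**Figure D1:**
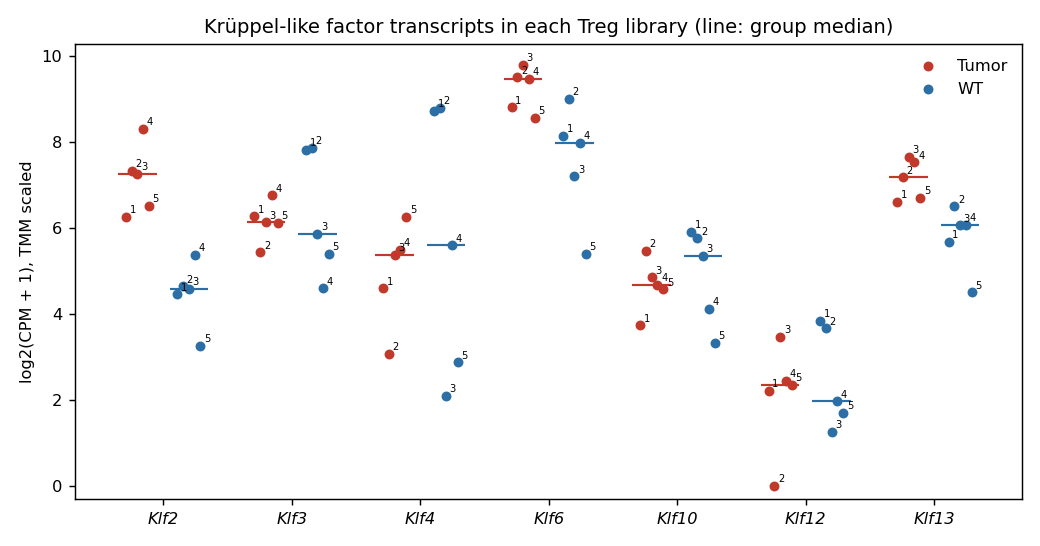
Level of each member in each library as log2(CPM + 1), with the Tumor libraries in red, the WT libraries in blue, the replicate number beside each point and a line at the group median. The Klf2 and Klf13 points of the groups do not overlap, and WT replicates 1 and 2 lie far above the other WT libraries for Klf3 and Klf4.

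Of the 7 members, 1 passed the test between Tumor and WT (Klf2, higher), where 1.59% of all tested genes passed in either direction and 1.37% upward (quasi-likelihood F test of edgeR, adjusted p below 0.05 by Benjamini-Hochberg). DESeq2 also called Klf2 alone of the 7, in a fit that called 7.71% of genes, 3.18% higher and 4.53% lower. Without WT replicates 1 and 2 Klf2 was again the 1 member called, where 7.9% of genes were called, 6.4% higher and 1.5% lower. In 2 of 7 (Klf2 and Klf13) the lowest Tumor library exceeded the highest WT library, against 4.38% of tested genes, and the reverse held in 0 of 7, against 1.57%. Log2 fold changes were above 0 for 3 of 7 members, near the 43.8% of all genes tested. The median over the members was -0.44, beside -0.20 over the tested genes.

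Klf2 (ENSMUSG00000055148, chromosome 8, 72319033 to 72321656, plus strand, up to 3 exons) was measured at 75.9, 161, 153, 318 and 91.1 CPM in Tumor replicates 1 to 5. In WT replicates 1 to 5 it was measured at 21.1, 24.045, 23.0, 40.8 and 8.62 CPM. The lowest Tumor library was thus above the highest WT library. Within WT, replicates 1, 2 and 3 were close to each other, and replicates 4 and 5 were the highest and the lowest. Klf2 rose from 23.5 ± 11.5 (SD, n = 5) to 160 ± 95.9 CPM, and its log2 fold change was 2.76 ± 0.59 (SE, edgeR adjusted p = 0.0242). The value was 2.72 ± 0.67 without WT replicates 1 and 2 (adjusted p = 0.0160) and 2.82 ± 0.59 without WT replicates 3, 4 and 5 (adjusted p = 0.00234). The call was lost without Tumor replicate 2, 3 or 4 or WT replicate 1 (adjusted p = 0.0774, 0.0723, 0.0765 and 0.0925), while over all 10 fits that left out a library the log2 fold change stayed between 2.39 and 3.08. Macrophage RNA, another known source of Klf2, moved in the same direction: 12 macrophage and monocyte genes summed to 1492 to 6262 CPM in Tumor and 66.7 to 193 CPM in WT, 6 of the 11 tested were called higher (1.37% of all genes), and C1qa had 0 reads in WT replicate 3. In Tumor replicates 1 to 5 these macrophage and monocyte genes summed to 1492, 6262, 1867, 2079 and 5611 CPM. Endothelial genes mark another Klf2-rich cell type, and 8 of them summed to 56.8 to 148 CPM in Tumor and 56.5 to 226 CPM in WT. By edgeR 0 of 8 were called (1 at an unadjusted p below 0.05, beside 16.1% of all tested genes). DESeq2 called Tek, an endothelial receptor gene, lower, beside 4.53% of all genes. The parts of macrophage and of endothelial RNA in the Klf2 value were not tested.

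Set against T cell RNA, Klf2 did not separate the groups. As a percentage of the summed CPM of 14 T cell genes (the pan-T genes, such as Cd3d, Cd3e, Lck, Zap70 and Cd4), Klf2 came to 1.47, 2.54, 1.90, 6.07 and 2.35% across the Tumor libraries in replicate order. The WT libraries, likewise in order, gave 9.11, 4.05, 2.002, 2.62 and 1.81%. The ranges overlapped, and the highest value was that of WT replicate 1, the library with the least pan-T RNA (231 summed CPM). With each library scaled to the pan-T genes, the log2 fold change of Klf2 was -0.41 ± 0.74 (SE, edgeR adjusted p = 0.586). That scaling moved the median over the tested genes to -3.52, and 89.3% of genes were then called, 89.2% lower and 0.103% higher, in place of 0.219% and 1.37% with TMM. Relative to the median of all genes Klf2 stood at 2.96 log2 units with TMM and 3.11 with pan-T scaling. A change of scaling moves all genes by about the same amount, so these 2 values had to be close and test nothing. With pan-T scaling 5 of the 7 members were called lower (Klf3, Klf4, Klf10, Klf12 and Klf13), beside the 89.2% of all genes. On this scale the values of Klf13 and Klf6 turned negative, at -1.96 ± 0.76 (adjusted p = 0.0195) and -2.10 ± 1.09 (adjusted p = 0.0682), and those of Klf3, Klf4, Klf10 and Klf12 lay between -5.97 and -4.05.

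**Figure D2:**
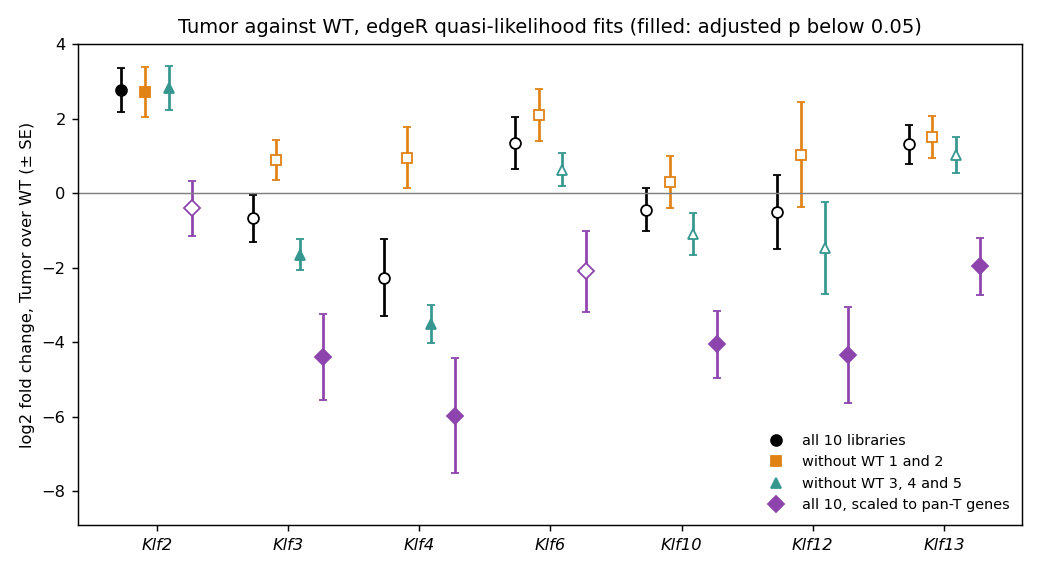
Log2 fold change of each member, Tumor over WT, with its standard error, from edgeR fits on all 10 libraries, without WT replicates 1 and 2, without WT replicates 3 to 5, and with scaling to the pan-T genes. Filled symbols passed at an adjusted p below 0.05. Klf2 keeps a value of 2.72 to 2.82 in the first 3 fits and has a value of -0.41 in the last, whereas Klf4 goes from 0.95 to -3.50 with the choice of WT libraries.

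Klf13 and Klf6 were both higher on average in Tumor without passing the test. Klf13 (ENSMUSG00000052040, chromosome 7, 63886351 to 63938915, minus strand), known in T cells as an activator of the chemokine gene Ccl5, was at 97.2, 144, 200.3, 184 and 103 CPM in Tumor replicates 1 to 5. Its WT levels, replicates 1 to 5, were 50.3, 90.1, 66.2, 66.2 and 21.8 CPM. The groups did not overlap, but Tumor replicate 1 and WT replicate 2 lay next to each other. The log2 fold change was 1.31 ± 0.53 (SE, edgeR adjusted p = 0.235). Klf6 (ENSMUSG00000000078, chromosome 13, 5861482 to 5870394, plus strand), an early response gene of many cell types, was at 449, 729, 888, 710.0 and 378 CPM in Tumor and at 282, 516, 147, 253 and 41.3 CPM in WT. WT replicate 2 lay within the Tumor range and WT replicate 5 far below all others, and the fitted value was 1.35 ± 0.70 (adjusted p = 0.355). It was 2.09 ± 0.70 without WT replicates 1 and 2 (adjusted p = 0.0644) and 0.63 ± 0.45 without WT replicates 3, 4 and 5 (adjusted p = 0.834).

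The profiles of Klf6 and Klf13 over the libraries were the closest of the 21 pairs of members. After centring log2(CPM + 1) on its mean, they differed by a root mean square of 0.51 log2 units over the 10 libraries, and the next pair, Klf2 and Klf13, by 0.77. Genes outside the family lay closer to each of them, such as Hmgb2 to Klf6 (0.20) and Pabpc1 to Klf13 (0.23). The ratio of Klf6 to Klf13 per kilobase, which no library scaling can change, was 6.27 to 8.66 in Tumor (median 7.60) and 3.25 to 9.83 in WT (median 6.54). Early response and cell dissociation genes, a class to which Klf6 belongs, summed to 4949 to 8609 CPM over 16 genes in Tumor and 254 to 5867 CPM in WT. WT replicate 5 had the lowest sum and the lowest Klf6, and WT replicate 2 the highest of both in WT. By edgeR 0 of the 16 were called, and 6 had an unadjusted p below 0.05, beside 16.1% of all tested genes. Values lay above 0 for 14 of the 16, beside 43.8% of all tested genes, and the median log2 fold change of the list was 1.34. Those with the smallest p were Dusp1, a phosphatase of MAP kinases, at 3.15 ± 0.84 (adjusted p = 0.0662), the nuclear receptor gene Nr4a1 at 2.36 ± 0.70 (adjusted p = 0.102) and Ier3, an early response gene, at 2.50 ± 0.86 (adjusted p = 0.159). DESeq2 called 4 of the 16 (these 3 and Junb), in a fit that called 7.71% of all genes, 3.18% higher. Voom called 2 and voom with quality weights 6, where 479 and 768 of all 21414 genes were called. Fos and Egr1 had values of 0.57 ± 0.88 and 0.20 ± 0.80. The part of cell handling in the Klf6 values was not tested.

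Klf4 was the member with the widest spread, and it was highest in the libraries richest in epithelial RNA. Klf4 (ENSMUSG00000003032, chromosome 4, 55527143 to 55532466, minus strand) was at 423 and 444 CPM in WT replicates 1 and 2, and at 3.29, 47.7 and 6.35 CPM in WT replicates 3 to 5. In Tumor replicates 1 to 5 it was at 23.3, 7.46, 40.6, 44.0 and 76.2 CPM. The highest levels of all were those of the WT libraries with the most epithelial RNA, and within Tumor, replicate 2 had the least epithelial RNA (63.0 summed CPM, 6 of 16 genes at 0) and the least Klf4, and replicate 5 the most of both. WT replicate 4 stood apart from this, with 47.7 CPM of Klf4 at 170.0 summed CPM of epithelial genes. The log2 fold change was -2.27 ± 1.03 (SE, edgeR adjusted p = 0.291) on all libraries. It turned to 0.95 ± 0.82 without WT replicates 1 and 2 (adjusted p = 0.529) and came to -3.50 ± 0.52 without WT replicates 3, 4 and 5 (adjusted p = 8.51e-05). The latter fit kept of WT only replicates 1 and 2, already seen to be highest in Klf4, so its p-value does not test Tumor against WT. The part of epithelial RNA in these values was not tested beyond leaving these libraries out.

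Klf5, the crypt epithelial family member, was also highest in WT replicates 1 and 2. It was at 276 and 590 CPM in these, 2.18 to 15.9 CPM in WT replicates 3 to 5 and 5.06 to 78.5 CPM in Tumor. Klf5 rose with Klf4 over Tumor replicates 3 to 5, at 16.1, 36.0 and 78.5 CPM. Of Tumor replicates 1 and 2, and of WT replicates 4 and 5, the one with more Klf4 had less Klf5. In Tumor replicate 1 and WT replicates 4 and 5, however, Klf5 lay under the receptor-gene background described below, at 0.481, 0.184 and 0.877 times. Its log2 fold change was -2.53 ± 1.13 (SE, edgeR adjusted p = 0.286). By edgeR 0 of the 16 epithelial genes were called, and by both voom fits 0. In edgeR 6 of them had an unadjusted p below 0.05, beside 16.1% of all tested genes. DESeq2 called 4 (Slc26a3, Vil1, Fabp2 and Car1), in a fit that called 7.71% of all genes, 4.53% lower. The median log2 fold change of the 16 was -2.64.

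Klf3, a CtBP-dependent repressor (ENSMUSG00000029178, chromosome 5, 64803388 to 64832901, plus strand), showed the same split of the WT group at a smaller scale. It was at 227 and 234 CPM in WT replicates 1 and 2 and at 57.3, 23.3 and 41.3 CPM in WT replicates 3 to 5. Tumor replicates 1 to 5 were at 76.4, 42.3, 69.1, 108 and 68.8 CPM. All of these lay below WT replicates 1 and 2, and Tumor replicate 2 also lay below WT replicate 3. The log2 fold change of -0.68 ± 0.63 (SE, edgeR adjusted p = 0.611) turned to 0.89 ± 0.53 without WT replicates 1 and 2 (adjusted p = 0.336) and to -1.65 ± 0.42 without WT replicates 3, 4 and 5 (adjusted p = 0.0154). Without WT replicates 3, 4 and 5, Klf3 and Klf4 were called lower and Klf2 higher, where 4.41% of all genes tested in that fit were called, 2.09% lower and 2.32% higher. That fit kept only the WT libraries already seen to be highest in Klf3 and Klf4, so their lower calls do not test Tumor against WT.

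**Figure D3:**
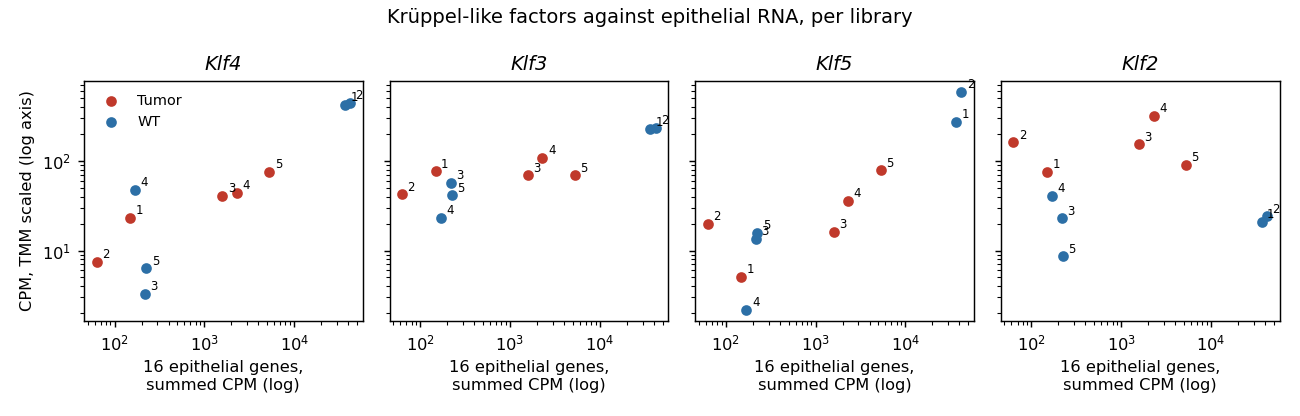
CPM of Klf4, Klf3, Klf5 and Klf2 against the summed CPM of 16 epithelial genes, 1 point per library with its replicate number, all axes logarithmic. WT replicates 1 and 2, at 36702 and 41872 CPM of epithelial genes, have the highest Klf4, Klf3 and Klf5, whereas their Klf2 lies among the other WT libraries.

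Klf10 and Klf12 were low and did not separate the groups. Klf10 (ENSMUSG00000037465, chromosome 15, 38291463 to 38300706, minus strand), a TGF-beta-induced factor, was at 12.4, 43.5, 27.9, 24.7 and 22.9 CPM in Tumor replicates 1 to 5. Its WT levels in replicate order were 59.2, 53.5, 39.9, 16.4 and 9.07 CPM. WT replicates 1 and 2 were again the highest, and the log2 fold change was -0.44 ± 0.58 (SE, edgeR adjusted p = 0.730), with 0.29 ± 0.70 without those 2 libraries. Klf12 (ENSMUSG00000072294, chromosome 14, 99870632 to 100284679, minus strand), a CtBP-recruiting repressor, had 13, 0, 62, 25 and 18 reads in Tumor replicates 1 to 5. In WT the reads numbered 57, 85, 3, 8 and 5. Its log2 fold change was -0.51 ± 1.002 (SE, edgeR adjusted p = 0.832). The ranges of both genes overlapped between groups on the CPM scale.

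Reads over 1437 olfactory and vomeronasal receptor genes, taken as genes of sensory neurons, gave a measure of background per kilobase in each library, from 3.89 to 9.74 reads per kb. Scaled by gene length, that background came to more reads than were counted for Klf12 in 8 of 10 libraries, the exceptions being Tumor replicate 3 (1.36 times the background) and WT replicate 2 (1.38 times), so Klf12 was not distinguishable from background at this depth. Klf6 lay at 42.7 to 191 times the background in Tumor and at 2.70 to 96.5 times in WT. Klf2 lay at 20.3 to 128 times in Tumor and 1.34 to 10.7 times in WT, lowest in WT replicate 5 with 19 reads. Klf3 was at 1.22, 0.907 and 1.06 times the background in WT replicates 3 to 5, and Klf4 at 0.258 and 0.599 times in WT replicates 3 and 5. Klf10 and Klf13 were under the background in 1 library, WT replicate 5, at 0.624 and 0.831 times. These WT levels were not distinguishable from background at this depth. With the background subtracted, the value of Klf2 was 2.25 ± 0.99 (SE, edgeR adjusted p = 0.722), in a fit that called 0 of 11696 genes (730 at an unadjusted p below 0.05).

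**Figure D4:**
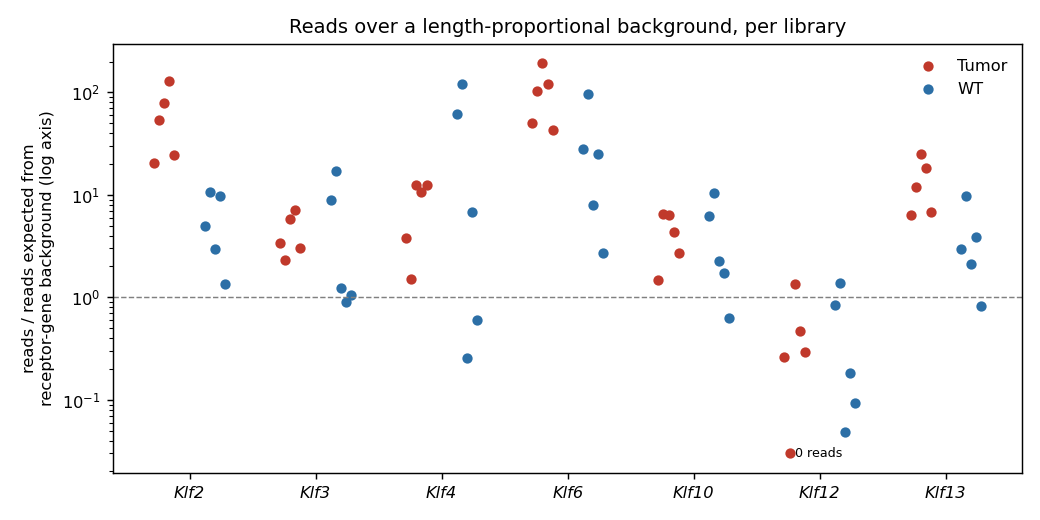
Reads of each member divided by the reads expected from the receptor-gene background for its length, 1 point per library on a logarithmic axis, Tumor in red and WT in blue, with the dashed line at 1 and the library with 0 reads drawn at the foot. Klf6 lies above the line in all 10 libraries and Klf12 lies below it in 8 of 10.

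The make-up of the Krüppel-like factor pool was compared as shares of the summed CPM per kilobase over 17 Klf genes, a measure that does not depend on library scaling. Klf2 made up 19.5, 28.0, 22.6, 40.8 and 19.5% of the pool across the Tumor libraries in replicate order. Its WT shares, in the same order, were 3.30, 2.73, 13.8, 15.7 and 9.92%. It was the 1 gene among the 17 whose share did not overlap between groups. WT replicates 3 and 4 came closest to Tumor. Klf6 made up 34.0 to 55.0% in Tumor and 18.6 to 41.0% in WT, and Klf13 5.43 to 7.24% and 1.94 to 9.76%. Klf4 took 40.2 and 30.5% of the pool in WT replicates 1 and 2 and 0.786 to 9.87% in Tumor. Klf5 took a further 15.4 and 23.8% in WT replicates 1 and 2, the libraries with the most epithelial RNA. In WT replicate 5 Klf15 and Klf17 made up 8.98 and 6.83%, at 1.21 and 0.924 times the background. A share falls where other genes of the pool are high, so the Klf2 shares in WT also depend on these genes.

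Ratios between members are also free of library scaling. Of the 21 pairs, 3 had ratios that did not overlap between groups. They were higher in Tumor as written below, and their inverses lower, so the shared direction follows from the order of the genes. How often ratios of other gene pairs separate the groups was not counted, so 3 of 21 has no share to be set against. The ratio of Klf2 to Klf13 was 3.12 to 7.04 in Tumor and 1.09 to 2.51 in WT. The ratio of Klf2 to Klf10 was 8.36 to 29.2 and 0.805 to 5.63, and that of Klf6 to Klf10 was 15.7 to 34.6 and 3.50 to 14.7. These ratios rest partly on reads near the receptor-gene background. Klf10 lay at 2.29, 1.72 and 0.624 times that background in WT replicates 3 to 5 and at 1.46 times in Tumor replicate 1. In WT replicate 5 Klf13 lay at 0.831 and Klf2 at 1.34 times. The part of background in the ratios was not tested. The ratio of Klf2 to Klf6 overlapped, at 0.402 to 1.06 in Tumor and 0.111 to 0.496 in WT. The pairs were described after the member values were known and share genes with each other, so no test was applied to them.

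**Figure D5:**
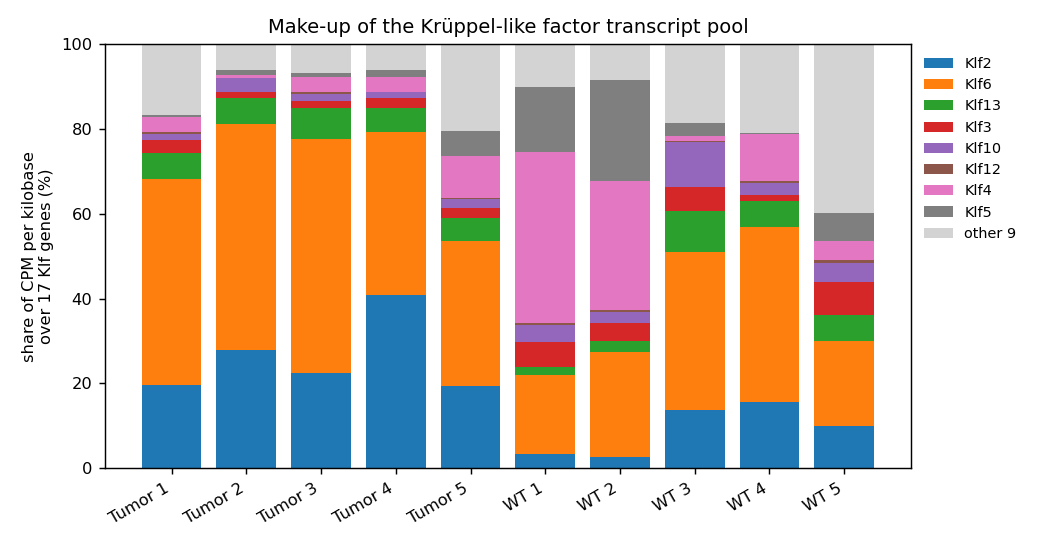
Share of each gene in the summed CPM per kilobase of 17 Klf genes, 1 stacked bar per library. Klf2 and Klf6 fill most of each Tumor bar, Klf4 and Klf5 are wide in WT replicates 1 and 2, and the Klf2 segment is 19.5 to 40.8% in Tumor and 2.73 to 15.7% in WT.

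No other family gene passed the same test. Of 10 further Klf genes with counts listed, 8 could be tested and 0 were called (edgeR), and of 9 Sp genes, the zinc finger relatives that bind the same GC boxes, 6 were tested and 0 called. DESeq2 and both voom fits called 0 of either list. At an unadjusted p below 0.05, which 16.1% of all tested genes reached, stood Klf5 and Sp4 (log2 fold change 1.53 ± 0.58, SE, adjusted p = 0.205). Those with the highest mean CPM over the 10 libraries, not divided by length, were Klf5, Sp3, Sp1 and Klf7, and Klf5 owed its place to WT replicates 1 and 2. The mean level of Sp3 was 97.6 ± 42.0 CPM in the Tumor libraries (SD, n = 5) and 54.5 ± 28.1 in WT, and Sp1 at 50.6 ± 17.9 and 43.2 ± 12.4. Klf7 was at 35.1 ± 9.33 and 25.0 ± 12.3 CPM, with 0.49 ± 0.51 as its log2 fold change (SE, adjusted p = 0.649).

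Genes that act above and below Klf2 were examined as a list of 12, of which 2 were called higher and 0 lower, against 1.37% and 0.219% of all tested genes. Their median log2 fold change was 0.999, beside -0.20 over the tested genes, and 9 of 12 values were above 0, beside 43.8% of all tested genes. Among the trafficking genes of the list, Itgb7, the gut-homing integrin beta 7, rose from 38.9 ± 28.5 (SD, n = 5) to 595 ± 266 CPM (log2 fold change 3.93 ± 0.74, SE, edgeR adjusted p = 0.0138), and S1pr4, a sphingosine phosphate receptor, rose from 11.7 ± 9.28 to 70.9 ± 32.8 CPM (2.60 ± 0.62, adjusted p = 0.0395). S1pr1, the egress receptor, had a value of 2.38 ± 0.68 that did not pass (edgeR adjusted p = 0.0865). Its groups did not overlap, as in 4.38% of all tested genes. DESeq2 and both voom fits each called 3 of the 12, which in DESeq2 (7.71% of all genes called) were Itgb7, S1pr4 and S1pr1. Over all 21414 genes voom called 479 and voom with quality weights 768. Ccr7, a chemokine receptor for lymph node entry, had a value of 1.31 ± 0.86 (adjusted p = 0.456). With pan-T scaling Itgb7, S1pr4 and S1pr1 stood at 0.93, -0.23 and -0.27, and 0 genes of this list were called higher and 7 of 12 lower, where 89.2% of all genes were called lower.

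Inducers of Klf2 did not pass. Foxo1, the factor that links nutrient and antigen signals to Klf2, averaged 149 ± 59.0 CPM over the Tumor libraries (SD, n = 5) and 76.1 ± 76.9 over WT (log2 fold change 0.97 ± 0.61, SE, edgeR adjusted p = 0.440). The kinase genes Map2k5 and Mapk7 had values of 0.91 ± 0.50 and -0.22 ± 0.81, and Mef2a, Mef2c and Mef2d, whose products bind sites such as the MEF2 sequence shown above for Klf2, had -0.50 ± 0.48, -0.54 ± 0.62 and 1.03 ± 0.58 (adjusted p from 0.391 to 0.691 for these 3).

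Cofactors and partners of the members did not pass. Of 13 cofactor and ubiquitin ligase genes 0 were called by edgeR, DESeq2 or either voom fit, with a median log2 fold change of 0.44. In edgeR 1 of them had an unadjusted p below 0.05, beside 16.1% of all tested genes. Kat2b, an acetyltransferase gene, had 1.22 ± 0.46 (SE, adjusted p = 0.206), Sin3b, a corepressor gene, 1.41 ± 0.68 (adjusted p = 0.312) and Ctbp1, the corepressor used by Klf3 and Klf12, 0.81 ± 0.53 (adjusted p = 0.456). Of 10 TGF-beta pathway genes, the setting in which Klf10 is known, 0 were called by edgeR or voom. In edgeR 4 had an unadjusted p below 0.05, beside 16.1% of all tested genes. DESeq2 called 1 (Skil), beside 7.71% of all genes. Of the 10, 8 had values above 0, beside 43.8% of all tested genes, and the list had a median of 0.81. The smallest p belonged to the feedback inhibitor gene Skil, at 1.67 ± 0.54 (adjusted p = 0.135), followed by Smad3 and Smad7 at 1.32 ± 0.50 and 1.49 ± 0.56 (adjusted p = 0.205 and 0.206), and every Tumor value lay above every WT value for these 3 genes, none of which passed in edgeR, against 4.38% of all tested genes. Tgfb1 itself had 0.50 ± 0.64. Of 10 tested quiescence genes, which share with Klf2 the restraint of T cell division, edgeR called Slfn2 alone and DESeq2 also Ets1 and Btg1. Over all tested genes edgeR called 1.59% and DESeq2 7.71%. Slfn2 rose from 24.5 ± 26.4 (SD, n = 5) to 210 ± 45.6 CPM (log2 fold change 3.11 ± 0.77, SE, adjusted p = 0.0460), and the list had a median of 0.78. Ets1 and Btg1 had 2.37 ± 0.70 and 2.03 ± 0.67 (edgeR adjusted p = 0.102 and 0.147). Their groups did not overlap, as in 4.38% of all tested genes. Cdkn1a, a cell cycle inhibitor under several Krüppel-like factors, had 0.069 ± 0.76. With pan-T scaling the medians of these 3 lists were -3.04, -2.20 and -2.50, beside -3.52 over all tested genes.

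The genes whose profiles over the 10 libraries lay closest to each member were taken by the root mean square difference of centred log2(CPM + 1) among protein coding genes of at least 10 CPM on average. Klf2 was nearest to Sh3kbp1 and Lsm5 (0.39 and 0.40 log2 units, where the median candidate differed by 1.6996). Klf6 was nearest to Hmgb2 and Ewsr1 (0.20 and 0.21, median 1.44), Klf13 to Pabpc1 and Cdk6 (0.23 and 0.23, median 1.27), and Klf10 to Zadh2 and Wsb2 (0.25 and 0.29, median 1.30). Klf4 had the least close neighbours, Dstn and Sqor (0.62 and 0.65, median 2.24). Klf3 was nearest to Tmem8 and Opa3 (0.36 and 0.36, median 1.35), and Klf12 to Sh3gl2 and Pcgf3 (0.48 and 0.49, median 1.45). The libraries share their differences in depth and composition, so these distances describe the 10 libraries only.

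Reads of genes that overlap a member were few beside Klf3 and Klf13 but not beside Klf12, where 4930517O19Rik and Gm16260 had 29 and 63 reads in all against 276 for Klf12. Neighbours that overlap Klf3, Klf12 or Klf13 in GENCODE M21 had at most 124 reads in any library, and of them Gm20033, on the opposite strand of Klf3, shared exon sequence (404 bases). Klf2, Klf4, Klf6 and Klf10 overlapped no other annotated gene.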

How the data were processed

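Gene expression was measured in 10 libraries of sorted mouse colon Tregs, 5 Tumor and 5 WT, grouped and numbered by their titles. The authors deposited raw read counts per gene, not normalized. The submitters' processing notes name mm10, HISAT2 2.0.5 and featureCounts 1.5.0-p3. Annotation release, strand setting and multi-mapping are not given in the sources used here, so reads of overlapping genes may not be separable. Each of the 45 pairs of libraries differed beyond sampling noise.

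Genes were filtered by filterByExpr (minimum count 10, total 15), scaled by TMM and tested in edgeR 4.0.16 (R 4.3.3) by the robust quasi-likelihood F test (2-sided, group as the 1 term), adjusted by Benjamini-Hochberg over 21414 genes at 0.05. The biological coefficient of variation was 86.1%. SE is the log2 fold change over the square root of F. The procedure was also run on simulated counts. These lacked the differences in cell composition between libraries seen here, so they cannot vouch for the fits on these data. Alternatives were other scalings, DESeq2 1.42.0, limma 3.58.1 voom, filters, background subtraction, a replicate block and left-out libraries. Members and lists were chosen with earlier results of these data known. Named were the members, the 4 most abundant other family genes, the called or up to 3 lowest-p genes of each list, and the 2 nearest profiles per member. Klf5 in its libraries, Sp4, Foxp3, Fos, Egr1, Cdkn1a, Tgfb1 and Ccr7 and the Klf2 inducers were added with their values known. Promoter windows were RefSeq's, matched for 6 of 7 members.

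Lists of neutrophil, dendritic, B and plasma cell, NK and CD8 T cell, and stromal genes gave 0 calls by edgeR. At an unadjusted p below 0.05, which 16.1% of all tested genes reached, stood 1, 3, 0, 1 and 0 of their genes. DESeq2 called 1, 2, 0, 0 and 0, beside 7.71% of all genes. The median log2 fold changes of the lists were 1.63, 0.59, -1.08, 0.60 and -0.59.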

Additional observations from a re-analysis of the deposited data

Results flagged for a closer look

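Across 48 sets of 5 libraries (levels and pool shares of the members, levels of the 4 most abundant other family genes and 6 marker sums, in each group), 3 had a library set apart from the rest of its group by more than Dixon's 95% limit, where chance gives about 1 in 20. The share of Klf10 in the Krüppel-like factor pool was 10.6% in WT replicate 3, against 2.68 to 4.61% in the other WT libraries. The summed B and plasma cell genes stood at 2911 CPM in the same library, against 123 to 396 CPM in the other WT libraries. In Tumor replicate 1 this sum was 395 CPM, against 56.4 to 142 CPM in the other Tumor libraries.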

How the results depend on the processing

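The Klf2 call held with RLE, upper-quartile or no composition factors, DESeq2, limma voom without and with quality weights, no filter and the filter of 10 CPM in 5 libraries. The count of called members was 1 on all libraries and 0 to 1 when single libraries were left out. It was 5 with pan-T scaling (all lower), 3 without WT replicates 3, 4 and 5, and 0 with an adjusted p below 0.01 (3 at an unadjusted p below 0.05), with the replicate block (2 unadjusted) and with the background subtracted (1 unadjusted), all in edgeR, while DESeq2 called 1. The count of 3 includes Klf3 and Klf4, called lower against only the WT libraries where both are highest. In the main fit 16.1% of all tested genes had an unadjusted p below 0.05. Values turned sign with pan-T scaling for Klf2 (-0.41), Klf6 (-2.10) and Klf13 (-1.96), without WT replicates 1 and 2 for Klf3 (0.89), Klf4 (0.95), Klf10 (0.29) and Klf12 (1.03), and with quality weights for Klf3 (0.29).

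Over all genes 340 were called (293 higher, 47 lower), and 65 to 417 without single libraries. The count was 19117 with pan-T scaling (22 higher, 19095 lower), 1651 with DESeq2 (682 higher, 969 lower), 768 with quality weights, 820 with no filter, 52 at an adjusted p below 0.01, 1993 without WT replicates 1 and 2, 1325 without WT replicates 3, 4 and 5, and 0 with the background subtracted (730 unadjusted). With the replicate number as a block 141 were called, and Klf2 had an adjusted p of 0.0519. Whether the numbers pair the libraries is not known. Correlations of same-numbered deviations were -0.14 to 0.040, and no Tumor library correlated best with its own number. The libraries of a group also differed widely in composition, so these correlations cannot exclude a pairing. Klf12 could not be tested with the filter of 10 CPM in 5 libraries or after background subtraction. The causes of these shifts were not tested.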
